A study of Mus musculus with 12 samples.

Results

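*Csmd3*, *Upk1b*, *Tnfrsf13b*, *Tpbgl*, *Tspan7*, *Tmem44*, *Gem* and *Cspg4* were much lower in microglia that had lost HDAC3, and they are described here as 8 genes of the 55401 counted in the series. They were picked by name because their counts were far lower in miKO than in WT, so that this difference chose them and is given below as a description without a test. The series holds RNA of sorted CD45int CD11b+ microglia in 12 libraries, with 3 libraries per genotype and surgery (WT or miKO, Sham or tFCI), and every library combined cells of 3 to 4 hemispheres. WT mice were CX3CR1 wt/wt with HDAC3 loxp/loxp, and miKO mice were CX3CR1 CreER/wt with HDAC3 loxp/loxp, so that both genotypes carried floxed *Hdac3* alleles and the CreER recombinase was made from 1 *Cx3cr1* allele of the miKO mice. All mice were male and received tamoxifen at 6 to 8 weeks of age, and surgery followed after at least a month. In tFCI (transient focal cerebral ischemia, a stroke model) the left middle cerebral artery was occluded for 60 min and cells were taken on day 3, while Sham mice had the operation without the occlusion. Loss of HDAC3 and the CreER insertion in *Cx3cr1* cannot be told apart in these groups, and a lower level in miKO does not show by itself that a gene requires HDAC3. Of the 8 genes, 7 were lower in miKO in both surgeries, the difference by which they were picked. *Cspg4* had 0 counts in every Sham library of both genotypes and was lower in miKO after tFCI alone.

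HDAC3 is a class I histone deacetylase and the catalytic subunit of the NCoR and SMRT corepressor complexes, which nuclear receptors and other transcription factors bring to enhancers and promoters. Removal of acetyl groups from histones there is best known for keeping genes silent, although HDAC3 has also been found at active genes and has functions that do not need its enzymatic activity. Apart from *Gem*, which encodes a small GTPase, the 8 genes encode proteins that span the cell membrane. They are known best from other cells, such as urothelium (*Upk1b*), B cells (*Tnfrsf13b*), neurons (*Csmd3*, *Tspan7*) and oligodendrocyte precursors and pericytes (*Cspg4*).

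Each library held between 7697864 and 9452222 counts on genes, and levels are given in CPM, the count of a gene relative to the size of its library after TMM scaling. Replicates 1 and 2 of miKO-Sham were more alike than any other replicate pair (chi-square per degree of freedom 2.85, against 3.75 to 85.9), although the labels place replicate 1 in sequencing batch 1 and replicate 2 in batch 2. They differed by more than counting error and were kept as separate libraries, but the counts cannot tell whether they came from separate samples or from 1 sample sequenced in both batches. Values of miKO-Sham are given with n = 3. With the pair summed to 1 library, only some of the results that rest on them are also given. These are the fold changes of *Upk1b*, *Csmd3* and *Tmem44* in miKO-Sham vs. WT-Sham, and calls in miKO-tFCI vs. miKO-Sham. All other results that rest on miKO-Sham keep the pair apart. *Hdac3* itself was at 41.8 ± 6.02 CPM in WT-Sham, 23.9 ± 2.64 in miKO-Sham, 50.2 ± 5.55 in WT-tFCI and 30.7 ± 4.70 in miKO-tFCI (SD, n = 3 each). Its level in miKO was 57.2% of WT in Sham and 61.1% in tFCI, and the 3 miKO libraries of either surgery were all below its 3 WT libraries. These counts cover the whole gene and do not separate transcripts with and without the deleted part. The fold change of *Cx3cr1*, the fractalkine receptor gene that carries CreER in miKO, was -1.68 on the log2 scale in miKO-Sham vs. WT-Sham and -1.84 in miKO-tFCI vs. WT-tFCI, both called by edgeR.

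*Csmd3* (ENSMUSG00000022311.15, minus strand of chromosome 15, GRCm38, 47580637 to 48792063) encodes a very large membrane protein built of CUB and sushi domains, which are also found in regulators of complement. In WT-Sham it was at 146, 175 and 189 CPM in replicates 1, 2 and 3, and in miKO-Sham at 1.80, 2.22 and 3.84 CPM. After tFCI it was at 53.9, 62.2 and 55.7 CPM in WT and at 0.929, 1.13 and 1.85 CPM in miKO. All miKO libraries lay far below all WT libraries, and the WT-tFCI libraries lay below the WT-Sham libraries. The miKO level was 1.54% of the WT level in Sham and 2.28% in tFCI. In raw counts, miKO libraries held 13 to 30 reads of *Csmd3* in Sham and 9 to 15 in tFCI, against 1214 to 1846 and 450 to 539 in WT.

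*Tnfrsf13b* (ENSMUSG00000010142.12, plus strand of chromosome 11, 61126755 to 61149372) encodes TACI, a receptor for the cytokines BAFF and APRIL that is known from B cells. WT-Sham libraries held 67.9, 106 and 118 CPM and miKO-Sham libraries 6.25, 7.21 and 9.48 CPM. In WT-tFCI it was at 50.0, 65.3 and 60.2 CPM, below each WT-Sham library. In miKO-tFCI it was at 12.2, 13.4 and 20.3 CPM, above each miKO-Sham library. The miKO level thus went from 7.85% of WT in Sham to 26.1% in tFCI.

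*Upk1b* and *Tspan7* both encode tetraspanins, proteins with 4 membrane passes that organise other proteins in the membrane. *Upk1b* (ENSMUSG00000049436.5, minus strand of chromosome 16, 38773184 to 38800328) encodes uroplakin 1b of the bladder lining. It was at 165, 186 and 219 CPM in WT-Sham and at 0.278, 1.11 and 1.92 CPM in miKO-Sham, where the libraries held 2 to 15 reads. In WT-tFCI it was at 38.1, 30.5 and 29.9 CPM, and in miKO-tFCI at 1.55, 1.13 and 0.494 CPM from 4 to 15 reads. *Upk1b* had the lowest miKO level of the 7 genes in Sham, 0.58% of WT, and was at 3.23% of WT in tFCI, where the WT level itself was lower.

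*Tspan7* (ENSMUSG00000058254.12, plus strand of chromosome X, 10485158 to 10596605) encodes a tetraspanin known in neurons for its part in trafficking of AMPA receptors. Its levels were 159, 176 and 173 CPM in WT-Sham and 38.0, 40.9 and 53.2 CPM in miKO-Sham. WT-tFCI libraries held 181, 219.6 and 217 CPM and miKO-tFCI libraries 47.4, 66.7 and 73.5 CPM. In contrast to *Upk1b*, *Tspan7* kept 26.0% of the WT level in Sham and 30.4% in tFCI.

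*Tpbgl* (ENSMUSG00000096606.2, minus strand of chromosome 7, 99624082 to 99627103, a single exon) encodes a leucine-rich repeat protein related to trophoblast glycoprotein. It was at 77.8, 97.7 and 100.4 CPM in WT-Sham and at 7.91, 12.8 and 17.5 CPM in miKO-Sham. After tFCI the WT libraries held 62.8, 71.2 and 81.3 CPM, which overlap WT-Sham, and the miKO libraries 17.6, 26.6 and 24.5 CPM, all above miKO-Sham. The miKO level was 13.9% of WT in Sham and 31.9% in tFCI.

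*Tmem44* (ENSMUSG00000022537.18, minus strand of chromosome 16, 30511855 to 30550842) encodes a transmembrane protein about which little is known. Its libraries were at 41.1, 45.0 and 43.0 CPM in WT-Sham and at 34.9, 46.1 and 42.4 CPM in WT-tFCI, and these groups overlap. In miKO-Sham it was at 1.67, 1.53 and 4.10 CPM, from 12, 11 and 32 reads, and in miKO-tFCI at 6.09, 7.92 and 6.55 CPM. The level of miKO-Sham was 5.65% of WT-Sham and that of miKO-tFCI 16.7% of WT-tFCI.

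*Gem* (ENSMUSG00000028214.13, plus strand of chromosome 4, 11704457 to 11714752) encodes a GTPase of the RGK group, which lowers the activity of voltage-gated calcium channels and acts on the cytoskeleton. It was at 118, 139 and 149 CPM in WT-Sham and at 159, 159 and 164 CPM in WT-tFCI. In miKO it was at 40.4, 39.5 and 43.4 CPM in Sham and at 35.2, 34.2 and 35.5 CPM in tFCI. Groups of *Gem* did not overlap in any of the comparisons between genotypes or surgeries, and its miKO level went from 30.4% of WT in Sham to 21.8% in tFCI.

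*Cspg4* (ENSMUSG00000032911.6, plus strand of chromosome 9, 56865033 to 56899870) encodes the chondroitin sulphate proteoglycan NG2. All 6 Sham libraries had 0 counts, which allows a level of up to 0.308 to 0.361 CPM per library in WT and 0.384 to 0.416 CPM in miKO (3 counts, counting error alone). In WT-tFCI it was at 20.5, 30.4 and 24.7 CPM (171, 263 and 203 reads), and in miKO-tFCI at 3.10, 4.52 and 2.47 CPM (30, 36 and 20 reads). The miKO-tFCI level was 13.4% of WT-tFCI, and no fold can be given between the genotypes in Sham.

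**Figure D1:**
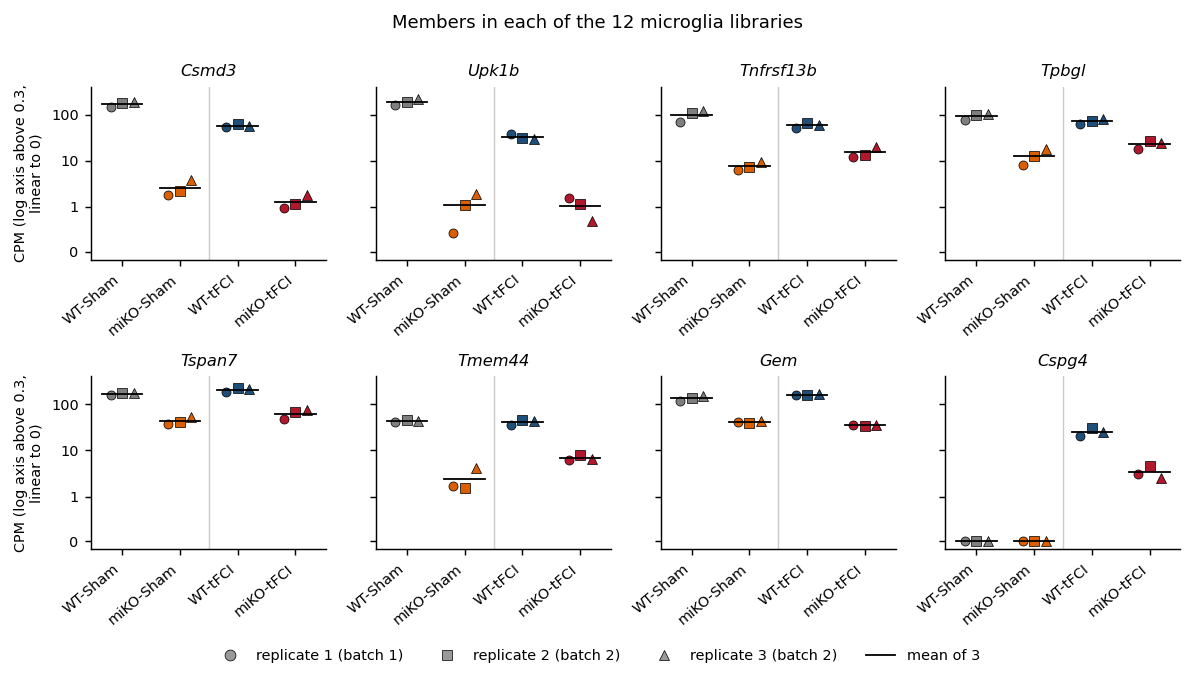
Level of each of the 8 genes in CPM (vertical axis, logarithmic above 0.3 and linear from there to 0) in the 12 libraries, by group. Circles are replicate 1 (batch 1), squares and triangles replicates 2 and 3 (batch 2), and lines the mean of 3 libraries. The miKO libraries lie below the WT libraries of the same surgery in every panel apart from *Cspg4* in Sham, where all 6 points are at 0.

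The genotype comparisons are given next, as values that chose the genes. In miKO-Sham vs. WT-Sham, 6.8% of the 16451 genes tested by edgeR were called lower and 8.58% higher, where a call needs an adjusted p below 0.05 together with a log2 change of more than 0.58 in either direction. In miKO-tFCI vs. WT-tFCI the shares were 4.71% lower and 4.08% higher. Scaling by library totals instead of TMM moved the median of all genes in Sham from 0.04 to -0.23 and the share of calls that were higher from 55.8% to 25.8%, and after tFCI that share from 46.4% to 31.6%. The 3 miKO libraries all lay below the 3 WT libraries for 16.2% of tested genes in Sham and for 13.3% in tFCI, as it was for 7 of the 8 genes in Sham and for 8 in tFCI. The log2 fold change in Sham was lowest for *Upk1b*, -7.39 (SE 0.33), followed by *Csmd3*, -6.01 (SE 0.21), and *Tmem44*, -4.14 (SE 0.26). It was -3.65 (SE 0.18) for *Tnfrsf13b*, -2.87 (SE 0.17) for *Tpbgl*, -1.95 (SE 0.14) for *Tspan7* and -1.71 (SE 0.12) for *Gem*. These genes had a median of -3.65, beside 0.04 over all genes tested.

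After tFCI the order changed. The log2 fold change in miKO-tFCI vs. WT-tFCI was lowest for *Csmd3*, -5.46 (SE 0.22), and *Upk1b*, -4.90 (SE 0.33). *Cspg4* followed with -2.89 (SE 0.32), *Tmem44* with -2.58 (SE 0.22) and *Gem* with -2.20 (SE 0.12). *Tnfrsf13b* (-1.94, SE 0.17), *Tspan7* (-1.73, SE 0.14) and *Tpbgl* (-1.67, SE 0.16) were nearest to 0. The 8 genes had a median of -2.39, beside 0.04 over all genes. Within batch 1 and batch 2 the differences on log2 CPM were close for *Gem* after tFCI (-2.17 and -2.20) and furthest apart for *Upk1b* in Sham (-8.32 and -6.89), whose miKO-Sham replicate 1 held 2 reads. Without miKO-Sham replicate 3 the fitted value of *Upk1b* in Sham was -8.07, and without miKO-Sham replicate 1 it was -6.92. With miKO-Sham replicates 1 and 2 summed to 1 library it was -7.29, and those of *Csmd3* and *Tmem44* were -6.00 and -4.08.

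The rule that picked the genes names no limit. A total of 381 genes were called lower in both genotype comparisons, 7 of them among the genes described here, and 66 were at least as far below WT as *Gem* was in Sham and *Tpbgl* in tFCI. When these genes were ordered by the smaller of both decreases, *Shisa7* (-6.70 in Sham and -6.18 in tFCI), which is not among the 8, came before *Csmd3* and *Upk1b*. Just outside the last of them, *Tpbgl*, was *Fam167b* (-1.66 and -1.90), and just inside were *Gp9* (-2.64 and -1.67) and *Nav2* (-2.03 and -1.68), none of which were picked.

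**Figure D2:**
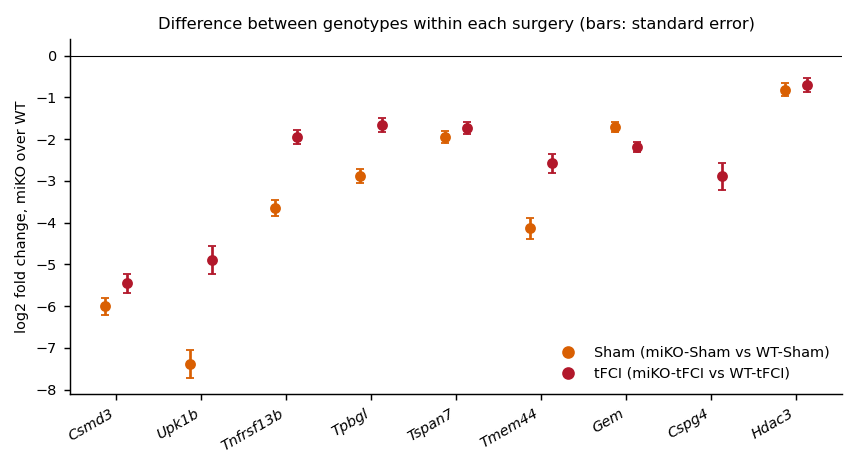
Log2 fold change of miKO over WT (vertical axis) for the 8 genes and *Hdac3*, in Sham (orange) and tFCI (red), with the standard error of the edgeR fit as bars and no value for *Cspg4* in Sham. *Upk1b* and *Csmd3* lie lowest in both surgeries, and the Sham value lies below the tFCI value for 6 of the 7 genes with both, with *Gem* the other way round.

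The surgery comparisons asked whether tFCI moved the 8 genes in either genotype. They did not choose the genes and were tested with edgeR's quasi-likelihood test and Benjamini-Hochberg adjustment over all genes, but they use the same libraries. The choice favoured genes that were high in the WT libraries and low in the miKO libraries. It can thus bias the fold changes and p-values of the surgery comparisons, by an amount and direction that were not tested. In WT-tFCI vs. WT-Sham, 11.7% of tested genes were called lower and 20.9% higher. Of the 8 genes, *Upk1b*, *Csmd3* and *Tnfrsf13b* fell and *Cspg4* rose. *Upk1b* fell to 17.3% of its WT-Sham level, with a log2 fold change of -2.53 (SE 0.23, adjusted p = 1.13e-06, edgeR), and *Csmd3* to 33.7%, with -1.56 (SE 0.15, adjusted p = 2.51e-06, edgeR). *Tnfrsf13b* fell to 60.1%, with -0.71 (SE 0.16, adjusted p = 0.00247, edgeR). In each of these 3 genes all WT-tFCI libraries were below all WT-Sham libraries. Shares of all tested genes with libraries apart between surgeries were not computed in either genotype.

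*Cspg4* rose from 0 counts to a mean of 25.2 ± 4.96 CPM (SD, n = 3), at least 75.2-fold higher when each WT-Sham library is set to the 3 counts that a count of 0 allows. It passed the filter on low counts through the tFCI libraries alone, so that its call adds nothing to its counts. The other 4 genes were not called in WT. The log2 fold change was -0.35 for *Tpbgl* (95% interval -0.67 to -0.03, adjusted p = 0.0758, edgeR) and -0.07 for *Tmem44* (-0.50 to 0.35, adjusted p = 0.794, edgeR). It was 0.27 for *Tspan7* (-0.01 to 0.56, adjusted p = 0.114, edgeR) and 0.25 for *Gem* (0.00 to 0.50, adjusted p = 0.103, edgeR), both with all WT-tFCI libraries above all WT-Sham libraries. The 8 genes had a median of -0.21 with *Cspg4* at its bound, beside 0.02 over all genes.

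In miKO-tFCI vs. miKO-Sham, 21.9% of tested genes were called higher and 13.9% lower. Of the 8 genes, *Tmem44*, *Tnfrsf13b*, *Tpbgl* and *Cspg4* rose and *Csmd3* fell, and the median was 0.68 with *Cspg4* at its bound, beside 0.03 over all genes. *Tmem44* rose by 1.48 on the log2 scale (SE 0.28, adjusted p = 6.35e-04, edgeR), *Tnfrsf13b* by 1.00 (SE 0.19, adjusted p = 6.83e-04, edgeR) and *Tpbgl* by 0.86 (SE 0.17, adjusted p = 0.001, edgeR), with every miKO-tFCI library above every miKO-Sham library in all 3. *Cspg4* rose to 3.36 ± 1.05 CPM (SD, n = 3), at least 8.29-fold higher against 3 counts per miKO-Sham library. With miKO-Sham replicates 1 and 2 as 1 library, the adjusted p from edgeR was 0.00279 for *Tmem44*, 0.00215 for *Tnfrsf13b* and 0.00616 for *Tpbgl*, and the same number of genes, 5, was called.

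*Csmd3* fell by 1.02 on the log2 scale in miKO (SE 0.30, adjusted p = 0.0129, edgeR), but its miKO-tFCI and miKO-Sham libraries overlap and hold few reads. Without miKO-Sham replicate 3 the value was -0.68 (adjusted p = 0.129, edgeR) and in a fit of the 2 groups alone -1.02 (adjusted p = 0.153, edgeR), so that the call was lost in both. *Tspan7* was at 0.49 (SE 0.14, adjusted p = 0.00977, edgeR), below the limit on size, and passed it at 0.61 when libraries were scaled by their totals and at 0.59 without miKO-Sham replicate 3. *Upk1b* stood at -0.05 (95% interval -1.16 to 1.06, adjusted p = 0.951, edgeR), a wide interval at 2 to 15 reads per library, with 1.79 within batch 1 and -0.77 within batch 2. *Gem* was at -0.23 (-0.50 to 0.03, adjusted p = 0.140, edgeR), with all miKO-tFCI libraries below all miKO-Sham libraries.

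**Figure D3:**
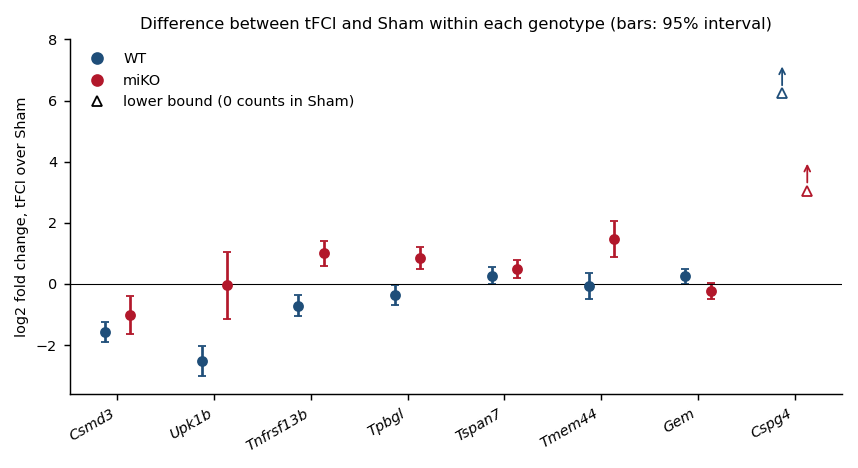
Log2 fold change of tFCI over Sham (vertical axis) in WT (blue) and miKO (red) for the 8 genes, with 95% intervals of the edgeR fit as bars. Open triangles with arrows are lower bounds for *Cspg4*, at least 75.2-fold in WT and 8.29-fold in miKO. The intervals of *Upk1b*, *Csmd3*, *Tnfrsf13b* and *Tpbgl* lie below 0 and that of *Gem* just above 0 in WT, and in miKO those of *Tnfrsf13b*, *Tpbgl*, *Tspan7* and *Tmem44* lie above 0 and that of *Csmd3* below 0.

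The difference between the surgery effects of the genotypes equals the difference between the genotype effects of the surgeries. It is therefore built from the values that chose the genes, and it is given without a test. On the log2 scale the effect of tFCI was higher in miKO than in WT by 2.49 (SE 0.58) for *Upk1b*, 1.71 (SE 0.24) for *Tnfrsf13b*, 1.56 (SE 0.34) for *Tmem44* and 1.21 (SE 0.23) for *Tpbgl*. The value was 0.55 (SE 0.35) for *Csmd3*, 0.22 (SE 0.19) for *Tspan7* and -0.48 (SE 0.17) for *Gem*. For *Upk1b* this came with a drop in WT and a miKO level near 1 CPM in both surgeries, whereas for *Tmem44* the WT level stayed within its spread and the miKO level rose.

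Per exonic length (RPKM, from the union of annotated exons), the genes stood in the following order in WT-Sham. *Upk1b* was highest with 91.0 ± 13.1 RPKM, then *Gem* with 64.2 ± 7.45, *Tnfrsf13b* with 34.3 ± 9.27, *Tpbgl* with 30.4 ± 4.09 and *Tspan7* with 24.0 ± 1.34 RPKM (SD, n = 3 each). *Csmd3* with 10.1 ± 1.31 RPKM, *Tmem44* with 4.84 ± 0.221 and *Cspg4* at 0 followed (SD, n = 3 each). Of the neighbours in this order, the libraries of *Tnfrsf13b* and *Tpbgl* overlapped and those of the other pairs did not. In WT-tFCI *Gem* came first with 76.3 ± 1.26 RPKM and *Upk1b* was in place 5 with 15.7 ± 2.19 RPKM (SD, n = 3 each), and libraries overlapped along the run from *Tspan7* over *Tpbgl* and *Tnfrsf13b* to *Upk1b*. *Gem* was first in both miKO groups as well, with 19.5 ± 0.969 RPKM in Sham and 16.6 ± 0.323 RPKM in tFCI (SD, n = 3 each). Below it stood *Tspan7*, *Tpbgl* and *Tnfrsf13b* in both, while *Upk1b*, *Tmem44*, *Csmd3* and *Cspg4* were under 1 RPKM.

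The 8 genes lie on 7 chromosomes, and *Upk1b* and *Tmem44* share chromosome 16 without being neighbours. RefSeq windows (GRCm38.p6) were found for 5 of them, *Tnfrsf13b*, *Tpbgl*, *Tspan7*, *Tmem44* and *Cspg4*, but none for *Csmd3*, *Upk1b* and *Gem*. The 250 bases before the start site were searched on both strands for 8 motifs. The general promoter motifs were the GC box, written GGGCGG, the TATA element, searched as the letters TATAAA, and the CAAT element, searched as the letters CCAAT. Sites of single factor families were the ETS core of the PU.1 type, GAGGAAGT, the AP-1 site, which reads TGAGTCA, and the cyclic AMP response element (CRE), which reads TGACGTCA. The last were the E-box of letters CACGTG and the RUNX site of letters TGTGGT. GC boxes were found in *Tpbgl*, *Tspan7* and *Cspg4* and in 32.7% of all 32851 windows of this length, and an E-box in *Tpbgl* and in 6.02% of all windows. The windows of *Tnfrsf13b* and *Tmem44* held none of these letters, and that of *Tmem44* lies inside the GENCODE gene, so that it is not upstream of it. The other motifs were found in none of the 5 windows and in 12.4% (TATA element), 33.9% (CAAT element), 2.44% (ETS core), 4.46% (AP-1), 1.55% (CRE) and 14.0% (RUNX) of all windows. A match describes letters and is not a measured binding site, and no match says nothing of a factor.

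Sequences are printed for the 3 genes with a GC box, and for *Tnfrsf13b*, in which tFCI moved WT and miKO in opposite directions and no motif was found. They run 5′ to 3′ on the strand of the gene, with matched motifs in capitals, and end at the base before the RefSeq start site, apart from *Cspg4*. GC boxes appear as CCGCCC, since all lie on the other strand, and in *Tpbgl* the GC box at position -100 is followed directly by the E-box at -94. They begin at -95 and -44 in *Tspan7* and at -120 and -85 in *Cspg4*, whose stretch holds the first 179 bases of the window, up to the start of the GENCODE gene. Positions are counted from the RefSeq start site. The windows are chr7:99627104-99627353 (minus strand) for *Tpbgl*, chrX:10484866-10485115 for *Tspan7*, chr9:56864854-56865032 for *Cspg4* and chr11:61126505-61126754 for *Tnfrsf13b* (plus strand for the last 3).
Tpbgl: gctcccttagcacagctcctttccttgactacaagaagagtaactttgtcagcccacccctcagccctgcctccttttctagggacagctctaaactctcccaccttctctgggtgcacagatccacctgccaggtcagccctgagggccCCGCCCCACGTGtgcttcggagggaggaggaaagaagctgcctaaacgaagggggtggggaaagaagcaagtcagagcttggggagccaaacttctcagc
Tspan7: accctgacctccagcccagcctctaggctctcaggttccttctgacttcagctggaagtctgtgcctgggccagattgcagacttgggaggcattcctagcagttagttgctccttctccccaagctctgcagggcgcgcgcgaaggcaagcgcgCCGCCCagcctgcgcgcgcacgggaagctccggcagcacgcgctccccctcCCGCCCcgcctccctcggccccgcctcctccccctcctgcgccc
Cspg4: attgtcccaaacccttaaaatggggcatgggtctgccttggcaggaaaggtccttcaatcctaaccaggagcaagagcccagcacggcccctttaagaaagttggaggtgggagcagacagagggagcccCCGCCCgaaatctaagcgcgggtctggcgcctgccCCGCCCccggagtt
Tnfrsf13b: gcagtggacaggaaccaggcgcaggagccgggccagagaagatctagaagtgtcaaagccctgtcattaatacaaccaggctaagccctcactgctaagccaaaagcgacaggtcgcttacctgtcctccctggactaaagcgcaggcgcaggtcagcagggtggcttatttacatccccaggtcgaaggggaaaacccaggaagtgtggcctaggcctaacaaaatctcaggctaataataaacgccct

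The nearest tested genes on both sides of the 8 genes (16 neighbours) were compared between genotypes in the same fit. In miKO-Sham vs. WT-Sham 7 of the 16 were called lower and 1 higher, with a median log2 fold change of -0.43 beside 0.04 over all genes, and in miKO-tFCI vs. WT-tFCI 3 were called lower and 0 higher, with a median of -0.27. Of all tested genes, 6.8% were called lower and 8.58% higher in Sham, and 4.71% lower and 4.08% higher in tFCI. *B4galt4*, a galactosyltransferase gene 4135 bases from *Upk1b*, was called lower in both surgeries, with -1.28 on the log2 scale in Sham (adjusted p = 5.1e-05, edgeR) and -0.81 in tFCI (adjusted p = 0.0064, edgeR). Both neighbours of *Tpbgl*, *Arrb1* (beta-arrestin 1) and *Slco2b1* (a transporter of organic anions), were called lower in both surgeries, with -1.28 and -0.88 in Sham and -1.08 and -0.90 in tFCI. Among those called lower in Sham and not in tFCI were *Usp22* (-0.72), a deubiquitinase gene 2413 bases from *Tnfrsf13b*, and *Atp13a3* (-0.69) beside *Tmem44*. *Kcnj12* on the other side of *Tnfrsf13b* was called lower too, but had 7 to 15 counts in WT-Sham and 0 in each miKO-Sham library. *Mid1ip1*, 118408 bases from *Tspan7*, rose by 0.70 in Sham, and by 0.43 without a call when libraries were scaled by their totals. The difference between the surgeries in these calls was not tested.

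**Figure D4:**
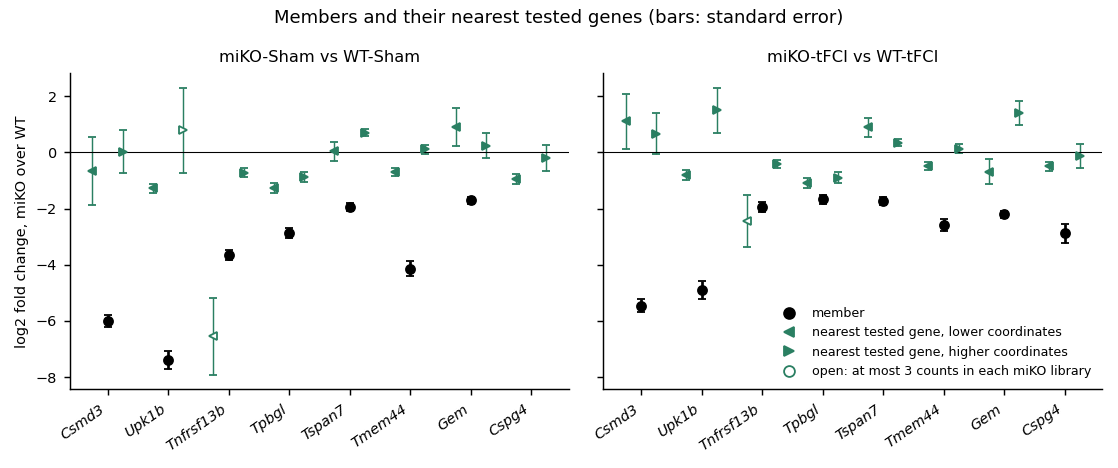
Log2 fold change of miKO over WT (vertical axis) for each of the 8 genes (black) and its nearest tested gene at lower and higher coordinates (green), in Sham (left) and tFCI (right), with standard errors as bars. Open green symbols have at most 3 counts in each miKO library and depend on the prior count of the fit. *Cspg4* has no value in Sham. The 7 other genes in Sham and all 8 in tFCI, which were picked for their low values, lie below their neighbours apart from *Kcnj12* beside *Tnfrsf13b*.

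Other counted genes overlap 4 of the genes, in whole or in part, and the strand used for counting is not given in the sources used here, so that reads of genes on opposite strands cannot be told apart. *Gm10605*, which overlaps *Tpbgl* on the other strand, held 175 to 375 counts in WT-Sham and 34 to 73 in miKO-Sham, with -2.32 on the log2 scale (SE 0.20, adjusted p = 2.15e-06, edgeR), and in tFCI it was at -1.90 (SE 0.21). Within *Csmd3*, *Gm16300* on the same strand had 20 to 55 counts in WT-Sham and 0 to 3 in miKO-Sham, and *Gm25007* on the other strand 9 to 16 and 0. *Gm23530* in *Csmd3*, *Gm12269* in *Tnfrsf13b* and *Gm25885* in *Tspan7* had at most 9, 0 and 3 counts in any library.

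Relatives of the 8 genes, from lists of their families and partners, moved in both directions. Of 67 tested relatives, 10 were called higher and 9 lower in miKO-Sham vs. WT-Sham, and 9 higher and 7 lower in miKO-tFCI vs. WT-tFCI, with medians of 0.18 and 0.15 beside 0.04 over all genes. The shares of all tested genes were 8.58% higher and 6.8% lower in Sham, and 4.08% higher and 4.71% lower in tFCI. The split of the relatives depended on the scaling, and with library totals 7 were called higher and 15 lower in Sham, and 7 higher and 8 lower in tFCI. Among 25 other tested tetraspanins, 6 rose and 6 fell in Sham, and 5 rose and 2 fell in tFCI, against 4 and 8 in Sham and 5 and 3 in tFCI with library totals. *Tspan18* was lower in both, with -3.39 on the log2 scale in Sham and -2.26 in tFCI, whereas *Tspan32*, a tetraspanin of blood cells, rose by 3.48 and 1.33. *Cd9* rose by 2.11 and *Tspan17* by 2.79 in Sham, and neither was called in tFCI (0.55 and 0.63).

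Of the partners of *Tnfrsf13b*, 7 were tested, of which 1 fell in Sham, and 1 rose and 2 fell in tFCI. *Tnfsf13b*, the gene of its ligand BAFF, was at 19.0 CPM in WT-Sham and 7.34 CPM in miKO-Sham and was called lower in both surgeries, with -1.37 on the log2 scale in Sham (adjusted p = 0.00293, edgeR) and -1.18 in tFCI (adjusted p = 0.0155, edgeR). *Tnfrsf17*, which encodes BCMA, another receptor for BAFF and APRIL, fell by 1.71 in tFCI (adjusted p = 0.00446, edgeR) and stood at -0.63 in Sham without a call, or at -0.89 with a call under library totals. *Traf1*, an adaptor of such receptors, rose by 1.49 in tFCI and was not called under library totals (1.41). *Tnfrsf13c*, the gene of the third receptor, reached at most 3 counts in any library, and *Tnfsf13*, the gene of APRIL, at most 9.

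Of 13 tested genes around *Gem* (RGK GTPases, effectors and calcium channel subunits), 2 rose and 1 fell in Sham, and 2 rose and 3 fell in tFCI. *Rrad*, another RGK GTPase, fell by 1.31 on the log2 scale in tFCI and stood at -0.55 in Sham, where it was called with library totals alone (-0.81). Of the channel subunits, *Cacnb2* fell by 2.70 and *Cacna1a* rose by 1.57 in Sham, and *Cacnb3* rose by 1.55 in tFCI. Among 16 tested genes of chondroitin sulphate proteoglycans and their synthesis, 2 rose and 1 fell in Sham, and 1 rose in tFCI. The sulphotransferase gene *Chst11* fell by 1.30 and *Chst12* rose by 0.80 in Sham (0.53 without a call under library totals), *Xylt1*, which starts the sugar chain, rose by 1.64 there, and *Ptprz1* rose by 1.51 in tFCI. Of 5 tested CUB-sushi relatives and membrane complement regulators, 0 were called between genotypes by edgeR or DESeq2, with 0 in Sham and 1 in tFCI at an unadjusted p under 0.05 by either, and the medians were 0.42 and 0.73. *Csmd1* and *Csmd2* did not pass the filter on low counts, with at most 21 and 3 counts. The 5 other uroplakin genes did not pass it either, *Upk3b* being at 0 in every library, and *Tpbg*, the relative of *Tpbgl*, was tested and not called between genotypes.

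The sort gate was checked against marker lists, given here as ranges of the summed CPM over each list. The 10 microglia markers (such as *Csf1r* and *Fcrls*) summed to 29282 to 38678 CPM in WT-Sham, 27254 to 32296 in miKO-Sham, 20942 to 23284 in WT-tFCI and 10484 to 20267 in miKO-tFCI. Of them, 4 fell (*Tmem119*, *Siglech*, *Olfml3* and *Cx3cr1*) and 1 rose (*Fcrls*) in miKO-Sham vs. WT-Sham. The 4 that fell in Sham and *Sall1* made up the 5 that fell in miKO-tFCI vs. WT-tFCI, and *Csf1r* was called in neither. *Cx3cr1* carries CreER in miKO, so that its fall cannot be told apart from an effect of the insertion. In RNA of a pool of cells, fewer cells of a type and less RNA per cell cannot be told apart. The 8 markers of oligodendrocyte precursors (led by *Pdgfra*, *Olig1* and *Sox10*) summed to 5.48 to 26.2 CPM in WT-tFCI and 21.5 to 50.7 in miKO-tFCI, against 0.448 to 0.601 in WT-Sham and 1.15 to 2.08 in miKO-Sham. Most of this sum after tFCI was *Pdgfra* alone, with means of 10.4 CPM in WT-tFCI and 27.3 in miKO-tFCI. *Olig1*, the next, had means of 1.31 and 2.87 CPM there. The 8 pericyte markers (led by *Vtn*, *Pdgfrb* and *Anpep*) summed to 15.0 to 47.9 CPM in WT-tFCI and 42.2 to 116 in miKO-tFCI, against 2.36 to 3.73 in WT-Sham and 3.46 to 7.64 in miKO-Sham. Both sums were higher after tFCI, as *Cspg4* was, and after tFCI their ranges in WT and miKO overlapped with the higher values in miKO, where *Cspg4* was lower. Of 2 and 4 tested markers, 1 and 2 were called higher in miKO-tFCI vs. WT-tFCI. The part of these cells in the rise of *Cspg4* was not tested.

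The 10 B cell markers, which bear on *Tnfrsf13b*, summed to 47.1 to 56.7 CPM in WT-Sham, 52.3 to 63.8 in miKO-Sham, 61.7 to 68.7 in WT-tFCI and 48.9 to 56.6 in miKO-tFCI. Most of this was *Cd22*, *Cd79b* and *Ighd*, while *Ms4a1*, the gene of the B cell antigen CD20, had a mean of at most 0.557 CPM in any group. These 3 genes moved in opposite directions between genotypes, so that the sum hides their changes. Of 4 tested B cell markers, 1 rose and 2 fell in miKO-Sham vs. WT-Sham, and 1 rose and 1 fell in miKO-tFCI vs. WT-tFCI. *Cd22* rose by 2.41 on the log2 scale in Sham and by 0.59 in tFCI. *Cd79b* was at -2.49 in Sham and -2.09 in tFCI, and *Ighd* at -2.32 in Sham and, without a call, at -1.29 in tFCI. The 5 plasma cell markers summed to 10.6 to 49.7 CPM over all libraries, and 1 rose and 1 fell in miKO-tFCI vs. WT-tFCI. The 5 mesothelial markers, known beside uroplakins, summed to 0.00 to 1.08 CPM in Sham and 1.34 to 17.4 in tFCI. The 8 neuron markers summed to 1.90 to 16.0 CPM, with the highest values in miKO-Sham. There *Rbfox3* alone had a mean of 11.8 CPM and the 7 other markers together 1.93 CPM, and 1 of 3 tested rose vs. WT-Sham. The 7 astrocyte markers summed to 5.54 to 13.7 CPM in Sham, 44.5 to 135 in WT-tFCI and 117 to 371 in miKO-tFCI. Markers of monocytes and macrophages (8 genes) summed to 12.5 to 103 CPM in Sham, 61.3 to 209 in WT-tFCI and 294 to 594 in miKO-tFCI, and those of border-associated macrophages (7 genes) to 74.9 to 307 in Sham, 175 to 269 in WT-tFCI and 339 to 816 in miKO-tFCI. In miKO-tFCI vs. WT-tFCI, where the 8 genes were lower, 1 astrocyte marker, 3 monocyte and macrophage markers and 3 border-associated macrophage markers were called higher, and the part of these cells in the lower levels was not tested.

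As a description over the 12 libraries, 7 of the genes followed each other closely after adjustment for batch, with Pearson's r between 0.889 (*Upk1b* and *Tspan7*) and 0.989 (*Tpbgl* and *Tmem44*) on log2 CPM. These genes were picked for being low in the same 6 miKO libraries, which largely fixes such values, and the correlation within groups was not computed. *Cspg4* stood apart, with r between 0.01 (*Upk1b*) and 0.42 (*Tspan7*). The 10 genes outside the set whose pattern was most like the mean of the 8, with r from 0.987 to 0.968, were *Itga6*, *Adamts1*, *Camk1d*, *Endod1*, *Fat3*, *Kcnma1*, *Hjurp*, *Pcyox1l*, *Gmpr* and *Olfml2b*. *Itga6*, an integrin subunit gene, had means of 260.03 CPM in WT-Sham, 68.0 in miKO-Sham, 295.86 in WT-tFCI and 104 in miKO-tFCI. *Adamts1*, a gene of a metalloprotease that cleaves proteoglycans, went through 297, 66.8, 381 and 94.4 CPM in the same order, and the atypical cadherin gene *Fat3* through 17.0, 1.18, 21.1 and 2.94 CPM.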

How the data were processed

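Libraries were made with a SMART-Seq v4 kit from sorted microglia. The submitters' processing notes name FastQC 0.11.9, Trim Galore, HISAT2 2.2.1, SAMtools and HTSeq 1.99.2, and the builds mm10 and GRCm38.p6, without a role or order. The values deposited by the authors are raw counts per gene without normalization. Shares were taken of all deposited counts, including reads that were not aligned, not unique, ambiguous or of low quality. Between 30.7% and 38.5% were assigned to genes and 45.3% to 52.5% to no counted feature, and lines that name no gene were left out. The labels name a CytoFLEX SRT sorter and the study's methods a Cytek Aurora.

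Of 55401 identifiers, 54349 matched the GENCODE M21 annotation (GRCm38) whole and 792 without their version, and symbols, positions and exonic lengths were taken from it. The tests ran in edgeR 4.0.16 under R 4.3.3 (filterByExpr, which kept 16451 genes, TMM factors of 0.864 to 1.11, quasi-likelihood fit of group and batch over 12 libraries, biological coefficient of variation 0.199). A call needed a p below 0.05 after Benjamini-Hochberg adjustment and a log2 change of more than 0.58 in either direction. Log2 CPM used a prior count of 2. DESeq2 1.42.0 was an alternative, and limma 3.58.1 adjusted log2 CPM for batch. The steps were tested on simulated data.

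The 8 genes and all lists were chosen with earlier results of these data known. Lists held families of the 8 genes and markers of microglia, oligodendrocyte precursors, pericytes, B cells, plasma cells, neurons, astrocytes, mesothelial cells, monocytes and macrophages, and border-associated macrophages. Named besides the 8 genes were *Hdac3*, their nearest and overlapping genes, the 10 genes most like their mean pattern, up to 4 called genes with the largest change per family list, and the 3 most abundant genes and those at 0 of each marker list. *Cx3cr1*, *Tmem119*, *Siglech*, *Olfml3*, *Sall1*, *Shisa7*, *Fam167b*, *Gp9*, *Nav2* and family genes not called were named after their values were seen. Some genes that this rule covers are not reported here.

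Replicate numbers come from the labels. Deviations of same-numbered libraries from their group means, which include the batch, correlated at 0.666, 0.334 and 0.324 between WT-tFCI and miKO-tFCI, whereas between every other pair of groups at least 1 of the 3 numbers did not pass 0.1. After adjustment for batch, which the fit already holds, the values between WT-tFCI and miKO-tFCI were 0.151, 0.0716 and -0.0269. Replicate 1, however, then correlated negatively between Sham and tFCI groups. It was at -0.568 and -0.535 for WT-Sham with WT-tFCI and miKO-tFCI, and at -0.468 and -0.591 for miKO-Sham with them. Each group holds 1 library of batch 1, replicate 1, and the adjustment removes a shift common to the groups. The adjusted deviations of replicate 1 therefore cancel across the groups for every gene, so that some negative values are built in. The adjusted 0.151 carries the same limit and cannot show whether same-numbered libraries are paired. Why the negative values lay between Sham and tFCI groups was not tested. The study's methods call the 3 libraries of a group biological replicates, each from combined hemispheres, and p-values measure the spread between them. The limits given for a count of 0 cover counting error alone.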

Additional observations from a re-analysis of the deposited data

Results flagged for a closer look

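For 2 of the genes, every tFCI library lay on one side of every Sham library in WT and on the opposite side in miKO. The share of all tested genes with such a pattern was not computed, so that this describes the 2 genes alone. *Tnfrsf13b* had a log2 fold change after tFCI of -0.71 in WT and of 1.00 in miKO, and both were called by edgeR. *Gem* had 0.25 in WT and -0.23 in miKO, and neither was called by edgeR. The difference between the genotypes was not tested, because it is built from the comparisons that chose the genes. By chi-square per degree of freedom between replicates, miKO-Sham replicate 3 (39.6 and 42.8, against 2.85 for the other pair) and miKO-tFCI replicate 1 (61.5 and 85.9, against 13.6) stood apart from the rest of their groups.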

How the results depend on the processing

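Results were recomputed under 22 alternatives. When 10 counts were required in all 12 libraries, *Csmd3*, *Upk1b* and *Cspg4* were not tested. Of the 8 genes, 1 was then called between WT surgeries (3701 genes in all) and 3 in miKO-tFCI vs. miKO-Sham (3744 genes in all). The 5 genes still tested had medians of -2.90 in miKO-Sham vs. WT-Sham and -1.92 in miKO-tFCI vs. WT-tFCI, and 10 relatives were called in the latter. With library totals the median in Sham was -3.92, and each of the 7 genes was lower by about the same step. The count of genes called in miKO-tFCI vs. WT-tFCI (1446) was 2193 with no filter on low counts, 2535 in a fit of the 2 groups alone and 701 with no batch term, where 9 of 67 relatives and 1 of 16 neighbours were called. When a library was left out it ranged from 616 (without WT-tFCI replicate 3) to 1667, with 700 without WT-tFCI replicate 2 and 917 without miKO-tFCI replicate 3, and called relatives from 8 to 18, against 16. The cause was not tested. In the main fit 4 and 5 of the 8 genes were called in WT and miKO after tFCI, beside 5365 and 5887 of all 16451 tested genes. Both of these counts include *Cspg4*, whose call adds nothing to its counts. With the replicate number as a block (replicate block), no call of the 8 genes changed, and 1429 genes were called in miKO-tFCI vs. WT-tFCI. DESeq2 also called 4 and 5 of the 8 genes after tFCI. The values of *Tmem44* in WT and of *Upk1b* in miKO after tFCI, neither of them called, changed sign under some alternatives (-0.17 to 0.01 and -0.93 to 0.63). No value of a called gene changed sign. Depth limits *Csmd3*, *Upk1b*, *Tmem44* and *Cspg4* in miKO, with at most 63 reads per library.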
